A study of Mus musculus with 16 samples.

Results

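The genes described here are 36 genes of the fatty acid oxidation and PPAR program, taken by name: the carnitine shuttle, fatty acid activation, the mitochondrial and peroxisomal oxidation steps, and the PPAR factors with their PGC-1 coactivators. Of these 36 genes, 32 had a probe set that carried their symbol, 1 probe set each, among 22206 tested probe sets. Acsl1, Acsl3, Etfb and Ppard had none in the annotation used and were not analysed here. The cells are BU.MPT, a line from the proximal tubule of the mouse kidney, and their RNA was measured on 16 Affymetrix arrays in 4 groups of 4. All cells were grown at 39 °C without interferon gamma. H/R cells were held for 3 h at about 1% oxygen in medium that lacked glucose and serum, and then for 1 h at normal oxygen with 4.5 g/L glucose and 10% serum. H/R+B12 cells went through the same with 0.3 µM cyanocobalamin, the vitamin B12 form used in supplements. The contr+B12 cells stayed at 21% oxygen in full medium with the same B12, and control cells stayed there without it. Oxygen, glucose and serum were withdrawn together, so their shares in any H/R difference cannot be told apart. The labels do not say that the arrays of a group came from separate cultures, so p-values measure the spread between these arrays.

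Mitochondria and peroxisomes both shorten fatty acids by repeated turns of dehydrogenation, hydration, a second dehydrogenation and thiolysis. Long chains are first joined to coenzyme A and enter mitochondria as carnitine esters. PPARA, a nuclear receptor that binds fatty acids, and the coactivator PGC-1α switch on many of these genes. Fatty acid oxidation is the main energy source of the proximal tubule in the kidney.

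Signals are log2 values, so a difference of -1 means that the signal was halved. They can be compared between arrays for 1 gene, but not between genes. A gene was called higher or lower where its limma p-value, adjusted over 22206 probe sets by Benjamini and Hochberg, was under 0.05. Array pairs of 1 group correlated at 0.990 to 0.994 over all tested probe sets, and no 2 arrays were identical. The array medians were 5.21 to 5.29 in the 8 H/R arrays with and without B12, and 5.28 to 5.37 in the 8 arrays kept at normal oxygen. The negative control medians were 5.86 to 6.23 and 5.72 to 6.10 in the same sets of arrays. All of them lay above every array median, so they are used as a cutoff and do not mark a floor of the signal. By 16-array mean, 10261 of the 22206 probe sets lay above the highest negative control median. Decr1, Ehhadh, Ppara and Ppargc1b had 16-array means below the highest of these medians, and the other 28 genes lay above it, between 8.60 and 16.16. Of 21 measured proximal tubule markers 18 lay below the negative controls, with Aqp1, Mme and Slc4a4 above them. Below them lay also 13 of 14 distal nephron, 8 of 9 fibroblast, 9 of 9 endothelial, 7 of 8 leukocyte and 3 of 10 epithelial markers.

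The start regions of 5 genes are shown. Those of Acadm, Acadvl, Cpt1a and Ppargc1a hold a motif named below, and these genes were lower with H/R averaged over both B12 states. They were picked for both traits, so motif and fall go together here by choice. That of Hadha was picked for the stretch it shares with Hadhb. The regions are RefSeq windows of assembly GRCm38.p6, from 250 bases before to 50 after a start of the gene. Of the 36 genes, 29 had such a window. That start need not be the outermost: the minus-strand gene Ppargc1a reaches to chr5:52115853, far upstream of its window. In the first 4, capitals mark matches to the core motif of hypoxia-inducible factors (ACGTG, read as CACGT on the other strand) or to the nuclear receptor hexamer that each partner of a PPAR dimer reads (AGGTCA, or TGACCT). In Hadha, capitals mark the 228 bases it shares with the window of Hadhb, which starts 273 bases away on the opposite strand. The windows lie at chr3:153944594-153944893 (Acadm, minus strand), chr11:70015379-70015678 (Acadvl, minus strand), chr19:3323051-3323350 (Cpt1a, plus strand), chr5:51567676-51567975 (Ppargc1a, minus strand) and chr5:30154931-30155230 (Hadha, minus strand).
Acadm: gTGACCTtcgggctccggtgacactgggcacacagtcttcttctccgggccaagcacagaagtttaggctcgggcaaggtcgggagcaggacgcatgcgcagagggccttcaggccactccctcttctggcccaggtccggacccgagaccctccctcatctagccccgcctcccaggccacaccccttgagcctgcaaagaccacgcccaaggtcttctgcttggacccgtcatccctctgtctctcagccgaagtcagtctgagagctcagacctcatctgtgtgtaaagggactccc
Acadvl: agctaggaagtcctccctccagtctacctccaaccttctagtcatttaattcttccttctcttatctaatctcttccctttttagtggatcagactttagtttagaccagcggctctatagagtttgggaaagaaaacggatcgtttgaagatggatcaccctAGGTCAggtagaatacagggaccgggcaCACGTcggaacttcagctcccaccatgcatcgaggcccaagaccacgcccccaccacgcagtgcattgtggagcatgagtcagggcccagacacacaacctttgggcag
Cpt1a: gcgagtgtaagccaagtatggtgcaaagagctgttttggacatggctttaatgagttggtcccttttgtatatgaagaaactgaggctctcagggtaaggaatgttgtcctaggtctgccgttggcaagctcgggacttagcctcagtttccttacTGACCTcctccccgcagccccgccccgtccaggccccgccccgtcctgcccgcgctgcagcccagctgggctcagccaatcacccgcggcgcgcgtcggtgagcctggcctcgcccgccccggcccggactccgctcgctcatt
Ppargc1a: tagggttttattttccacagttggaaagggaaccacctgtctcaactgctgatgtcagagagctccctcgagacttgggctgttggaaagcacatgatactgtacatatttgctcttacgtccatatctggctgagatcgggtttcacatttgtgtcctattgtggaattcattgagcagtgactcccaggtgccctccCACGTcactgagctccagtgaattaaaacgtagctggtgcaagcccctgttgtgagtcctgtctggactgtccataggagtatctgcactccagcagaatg
Hadha: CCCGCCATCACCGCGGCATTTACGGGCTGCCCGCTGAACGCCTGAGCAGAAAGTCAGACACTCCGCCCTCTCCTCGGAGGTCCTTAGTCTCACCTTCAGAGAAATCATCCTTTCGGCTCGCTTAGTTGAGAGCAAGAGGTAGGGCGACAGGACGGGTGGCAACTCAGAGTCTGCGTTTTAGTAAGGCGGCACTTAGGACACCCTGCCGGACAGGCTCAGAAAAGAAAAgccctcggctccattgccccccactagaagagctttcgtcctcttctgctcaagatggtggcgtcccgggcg

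Both motifs were searched on both strands. ACGTG was found in 3 of 30 windows of these genes (10.0%), those of Acadvl, Ppargc1a and Ppard, against 19.6% of 32851 windows of all genes. AGGTCA was found in 4 of 30 windows (13.3%), those of Acadm, Acadvl, Cpt1a and Echs1, against 16.3% of all windows. The hexamer began 249 bases before the start in Acadm, 87 in Acadvl and 94 in Cpt1a, and the ACGTG match 59 bases before it in Acadvl and 51 in Ppargc1a. The direct repeat of the hexamer with 1 base between, the full PPAR site, was in 0 of the 30 windows and in 0.0396% of all windows, and the estrogen-related receptor site TCAAGGTCA in 0 of 30 and in 0.423%; each of these holds the hexamer. These counts describe letters in short windows, with no test, and starts of a gene outside these windows were not searched.

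Of the 24 measured genes of activation and mitochondrial oxidation 13 were lower after H/R, 1 was higher and 10 were not called. In H/R against control 16 of the 32 measured genes were lower (50%) and 1 was higher (3.12%). Over all 22206 probe sets 9.54% were lower and 8.11% higher. Among the 28 genes above the negative controls 16 were lower (57.1%), against 18.8% of the 10261 probe sets above them. The median log2 difference was -0.45 over the 32 genes and -0.02 over all probe sets, and 28 of the 32 differences were below 0. The 4 H/R arrays all lay below the 4 control arrays for 14 genes (43.8%), against 11% of all probe sets.

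The H/R+B12 and contr+B12 arrays gave the same comparison in separate samples. There too 16 genes were lower (50%) and 1 higher (3.12%), against 9.61% and 9.04% of all probe sets. The median difference was -0.49 over the 32 genes and -0.04 over all probe sets. For 19 genes (59.4%, against 11.2% of all probe sets) every H/R+B12 array lay below every contr+B12 array. The genes lower in both comparisons numbered 12 (37.5%, against 6.69% of all probe sets), and Acsl4 was the 1 gene higher in both (3.12%, against 6.55%). With H/R averaged over both B12 states, 21 genes were lower (65.6%) and 1 was higher (3.12%), against 14.7% and 12.5% of all probe sets. Centring each array on its own median moved the median of all probe sets in H/R against control to 0.05 and left 13 genes lower there and 14 in the H/R+B12 comparison. With the negative control median as a covariate, added after the data were seen, these counts were 14 and 15.

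**Figure D1:**
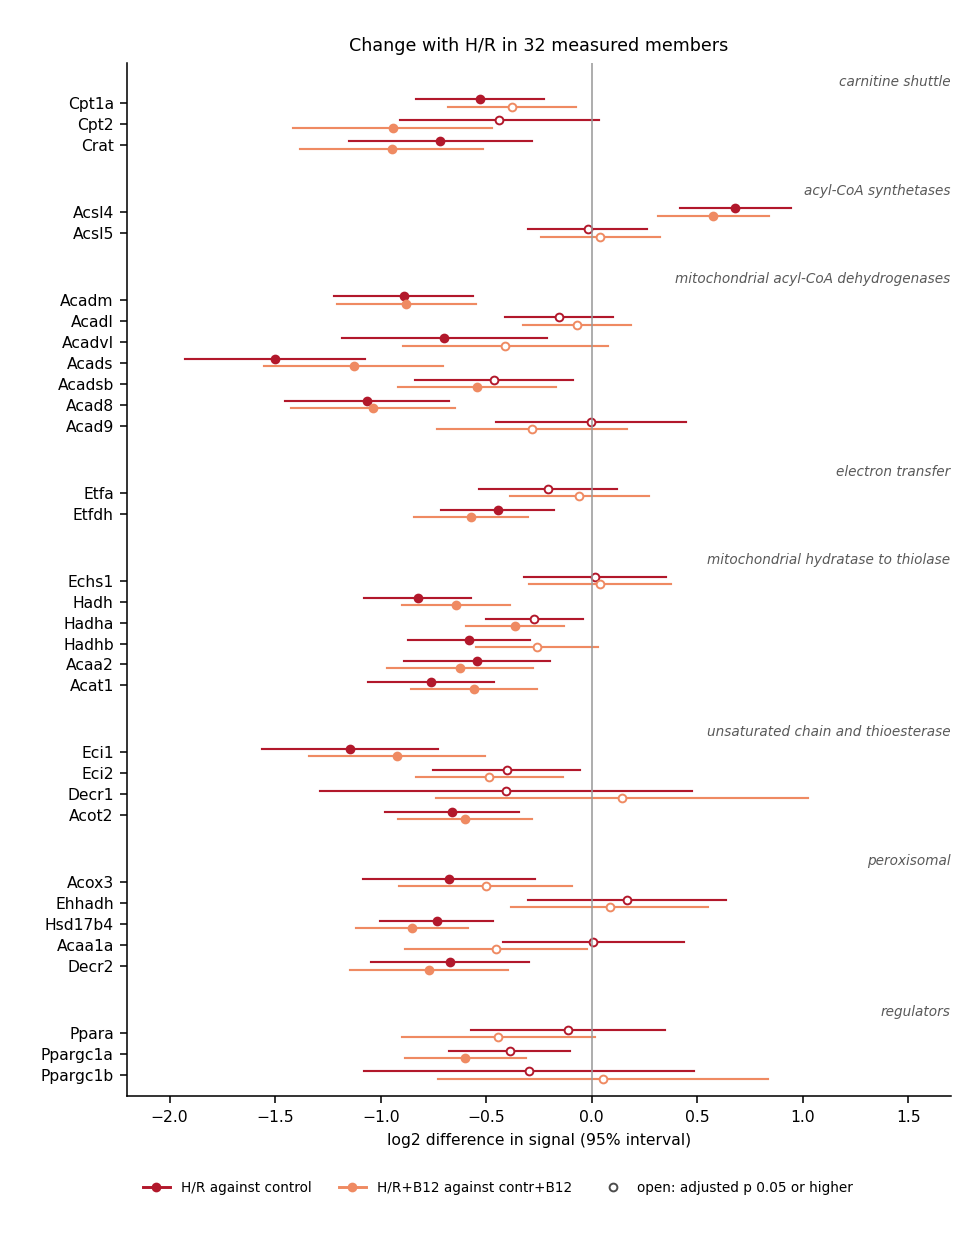
Log2 difference in signal (horizontal axis, points, with 95% intervals as lines) for the 32 measured genes, grouped by role, in H/R against control (dark red) and H/R+B12 against contr+B12 (orange). Filled points passed an adjusted p of 0.05; 16 genes in each comparison are filled left of 0, and Acsl4 is the filled gene right of 0.

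The gene of the first carnitine step fell in H/R. Cpt1a, the outer membrane carnitine palmitoyltransferase that sets the pace of entry, gave 12.93, 12.79, 12.79 and 12.96 in H/R, against 13.04, 13.48, 13.41 and 13.66 in control. Every H/R array lay below every control array, a difference of -0.53 ± 0.14 (SE, adjusted p = 0.0157). Its H/R+B12 values were 13.03, 12.93, 12.73 and 13.04, against 13.13, 13.35, 13.30 and 13.46 in contr+B12, also without overlap, but that difference was not called (-0.38 ± 0.14, adjusted p = 0.0814). Its H/R call was lost without control replicate 4 (adjusted p = 0.0561) and in a limma fit of H/R and control alone (adjusted p = 0.0538). Its other difference was called without control replicate 1 (adjusted p = 0.0482).

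Cpt2, the inner membrane enzyme that hands the fatty acid back to coenzyme A, gave 9.26, 8.78, 9.03 and 8.85 in H/R, against 9.18, 9.33, 9.28 and 9.88 in control. The groups overlapped and the difference was not called (-0.44 ± 0.22, adjusted p = 0.223). In H/R+B12 it gave 8.70, 8.80, 8.78 and 7.88, against 9.62, 9.82, 9.36 and 9.14 in contr+B12, with no overlap and a called difference of -0.94 ± 0.22 (adjusted p = 0.00632). The interaction of H/R and B12 was -0.51 ± 0.32 (adjusted p = 0.987), so the size of the change was not shown to differ with B12.

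Crat, which moves acetyl and other short acyl groups between carnitine and coenzyme A, gave 8.35, 8.42, 8.93 and 8.36 in H/R, against 9.14, 9.36, 8.84 and 9.60 in control. H/R replicate 3 lay above control replicate 3, and the rest of the H/R arrays lay below all controls; the difference was -0.72 ± 0.20 (adjusted p = 0.0213). The H/R+B12 arrays gave 8.73, 8.24, 8.13 and 8.35, against 9.38, 9.05, 9.10 and 9.72 in contr+B12, with no overlap (-0.95 ± 0.20, adjusted p = 0.00329). The H/R call of Crat was lost without control replicate 2 or 4 (adjusted p = 0.0575 and 0.0739) or without H/R replicate 1, 2 or 4 (adjusted p = 0.0612, 0.0548 and 0.0595).

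Neither measured gene of fatty acid activation was called lower. Acsl4, an acyl-CoA synthetase that prefers arachidonic acid, rose in both comparisons. It gave 14.54, 14.50, 14.25 and 14.51 in H/R, against 13.85, 13.69, 13.62 and 13.92 in control (0.68 ± 0.12, adjusted p = 0.000907). It gave 14.50, 14.27, 14.46 and 14.28 in H/R+B12, against 13.82, 13.73, 13.92 and 13.73 in contr+B12 (0.58 ± 0.12, adjusted p = 0.00327). Neither comparison showed any overlap between its groups. Acsl5, another long-chain acyl-CoA synthetase, was not called, with differences of -0.02 ± 0.13 (95% interval -0.30 to 0.26) and 0.04 ± 0.13 (-0.24 to 0.32).

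Acyl-CoA dehydrogenases carry out the first oxidation step and differ in the chain they accept. Of the 7 measured, 4 were called lower in H/R and 4 in H/R+B12, against 9.54% and 9.61% of all probe sets. Acads, Acadm and Acad8 were called in both, Acadvl only in H/R and Acadsb only in H/R+B12. Acads, the short-chain dehydrogenase, had the largest drop of the 32 genes in both comparisons. Acads gave 9.84, 9.55, 9.26 and 9.34 in H/R, against 10.31, 11.12, 11.33 and 11.24 in control, which left 35.4% of the control signal (-1.50 ± 0.20, adjusted p = 5.96e-05). With B12 the H/R+B12 arrays gave 9.93, 9.78, 9.67 and 9.81, against 10.66, 11.06, 10.95 and 11.05 in contr+B12, or 45.7% (-1.13 ± 0.20, adjusted p = 0.000731). The groups were apart in both cases.

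Acadm, the medium-chain dehydrogenase, gave 10.21, 10.36, 9.90 and 10.49 in H/R, against 10.93, 11.09, 11.38 and 11.12 in control (-0.89 ± 0.15, adjusted p = 0.000598). Values in H/R+B12 were 10.42, 10.54, 10.26 and 10.23, against 11.04, 11.48, 11.21 and 11.23 in contr+B12 (-0.88 ± 0.15, adjusted p = 0.000676). Both H/R groups lay wholly below their counterparts, at 53.9% and 54.4% of the signal.

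Acad8 oxidizes isobutyryl-CoA from valine rather than a straight fatty acid. It gave 9.17, 9.16, 8.51 and 9.37 in H/R, against 10.09, 10.17, 10.19 and 10.02 in control (-1.06 ± 0.18, adjusted p = 0.000543), and 8.87, 8.97, 8.87 and 8.98 in H/R+B12, against 9.98, 10.02, 10.30 and 9.52 in contr+B12 (-1.04 ± 0.18, adjusted p = 0.000678). Neither pair of groups overlapped. Acadsb, which handles short branched chains from isoleucine, gave 11.18, 11.24, 11.04 and 11.41 in H/R, against 11.15, 11.62, 11.83 and 12.13 in control, with overlap and no call (-0.46 ± 0.18, adjusted p = 0.0866). The Acadsb probe set gave 10.96, 11.30, 11.23 and 11.09 in H/R+B12, against 11.57, 11.82, 11.69 and 11.67 in contr+B12, without overlap (-0.54 ± 0.18, adjusted p = 0.04). That call of Acadsb was lost in centred arrays, with the negative control covariate, and without any 1 of 9 arrays: each contr+B12 array, H/R replicate 1 or 2, or H/R+B12 replicate 1, 3 or 4 (adjusted p up to 0.109). Without control replicate 1 its H/R difference was called (adjusted p = 0.00882).

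Acadvl, the very-long-chain dehydrogenase of the inner membrane, gave 9.99, 10.56, 10.81 and 10.34 in H/R, against 10.71, 11.72, 11.30 and 10.75 in control. H/R replicate 3 lay above control replicates 1 and 4, and the call was close to the threshold (-0.70 ± 0.23, adjusted p = 0.0442). It was lost without any 1 of 11 arrays: control replicate 2 or 3, contr+B12 replicate 2 or 4, H/R replicate 1, 2 or 4, or any H/R+B12 array (adjusted p up to 0.154, without control replicate 2). Quantile normalization, centred arrays, the negative control covariate and a limma fit of H/R and control alone (adjusted p = 0.103) also ended it. In H/R+B12 it gave 10.60, 10.65, 10.36 and 10.31, against 11.17, 10.99, 10.50 and 10.90 in contr+B12, which overlapped and was not called (-0.41 ± 0.23, adjusted p = 0.261). Acadl, the long-chain dehydrogenase, and Acad9, which also helps to assemble complex I, were called in neither comparison. Acadl differed by -0.15 ± 0.12 (95% interval -0.41 to 0.10) and -0.07 ± 0.12 (-0.33 to 0.19), and Acad9 by 0.00 ± 0.21 (-0.45 to 0.44) and -0.28 ± 0.21 (-0.73 to 0.17).

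The dehydrogenases pass their electrons to the electron transfer flavoprotein and from there to ubiquinone. Etfdh, the ubiquinone oxidoreductase of that path, gave 12.58, 12.72, 12.58 and 12.71 in H/R, against 13.04, 12.99, 13.04 and 13.29 in control (-0.45 ± 0.13, adjusted p = 0.0209). The H/R+B12 arrays gave 12.70, 12.35, 12.57 and 12.31, against 13.15, 12.96, 13.11 and 12.99 in contr+B12 (-0.57 ± 0.13, adjusted p = 0.00398). The groups did not overlap in either. The H/R call was lost in centred arrays and without control replicate 4 (adjusted p = 0.0693), H/R replicate 1 (adjusted p = 0.0548) or H/R replicate 3 (adjusted p = 0.0563). A limma fit of H/R and control alone also ended it (adjusted p = 0.0558). Etfa, a subunit of the flavoprotein itself, was not called (-0.21 ± 0.16, 95% interval -0.54 to 0.12, and -0.06 ± 0.16, -0.39 to 0.27).

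**Figure D2:**
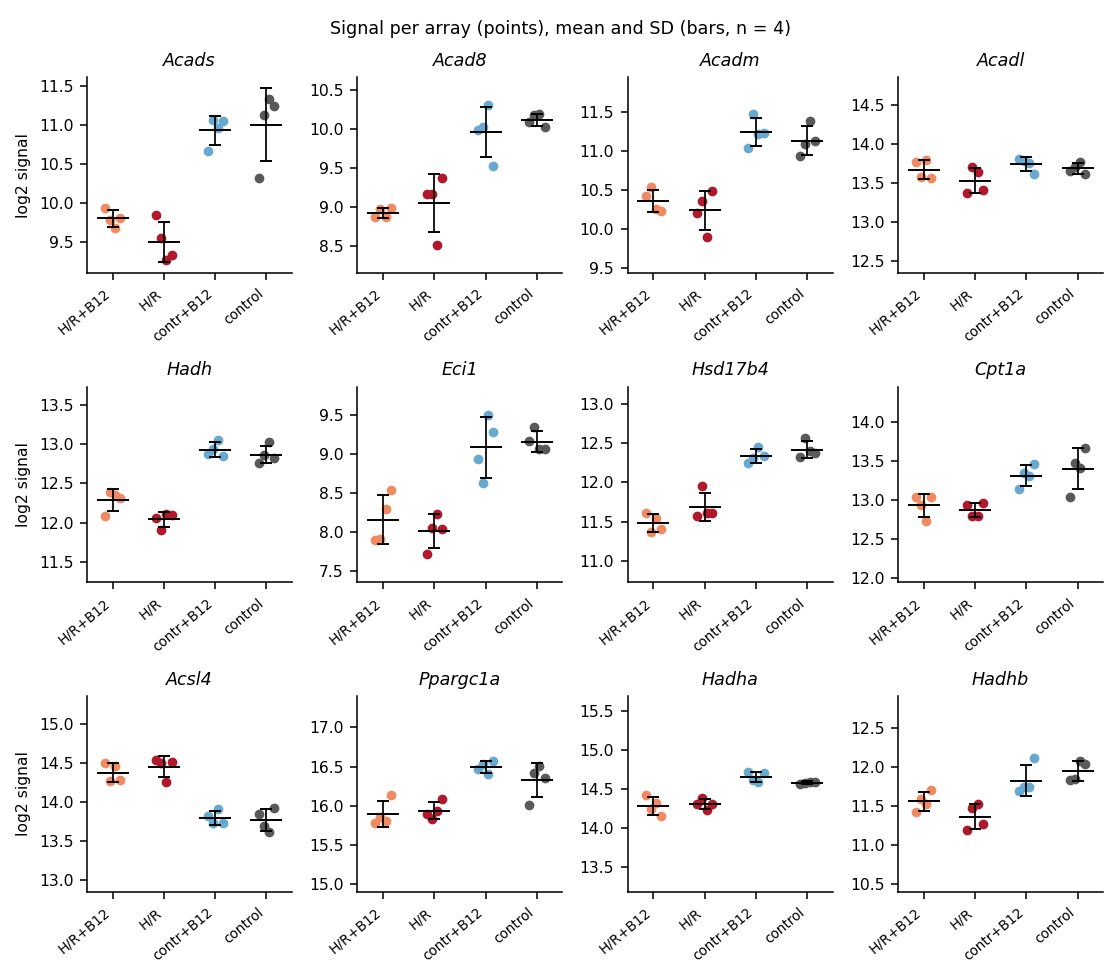
Log2 signal (vertical axis, same span in each panel) of 12 genes in the 4 groups, with 1 point per array and the mean and SD of 4 arrays as bars. For Acads the 4 H/R arrays lie at 9.26 to 9.84 and the 4 control arrays at 10.31 to 11.33, while Acsl4 lies higher in H/R and Acadl overlaps between groups.

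Of 6 genes of the remaining turns of the mitochondrial cycle, 4 were called lower in H/R and 4 in H/R+B12, against 9.54% and 9.61% of all probe sets. Hadh, Acat1 and Acaa2 were called in both, Hadhb only in H/R and Hadha only in H/R+B12. Hadh, the hydroxyacyl-CoA dehydrogenase for short and medium chains, gave 12.06, 11.91, 12.11 and 12.09 in H/R, against 12.76, 12.86, 13.02 and 12.82 in control (-0.83 ± 0.12, adjusted p = 0.000133). With B12 the H/R+B12 arrays gave 12.09, 12.39, 12.36 and 12.31, against 12.88, 12.94, 13.06 and 12.85 in contr+B12 (-0.64 ± 0.12, adjusted p = 0.00109). The gap between its groups was wider than the range within any of them in both comparisons.

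Acat1, the mitochondrial acetoacetyl-CoA thiolase that also serves ketone bodies and isoleucine, gave 13.11, 13.11, 13.02 and 12.72 in H/R, against 13.74, 13.86, 13.73 and 13.65 in control (-0.76 ± 0.14, adjusted p = 0.00103). Values in H/R+B12 were 13.15, 13.29, 12.90 and 12.90, against 13.64, 13.42, 13.59 and 13.82 in contr+B12 (-0.56 ± 0.14, adjusted p = 0.0095). Both were without overlap. Acaa2, the thiolase that ends the cycle for straight chains, gave 11.40, 11.73, 11.73 and 11.94 in H/R, against 11.91, 12.55, 12.26 and 12.27 in control (-0.55 ± 0.16, adjusted p = 0.0275), with H/R replicate 4 above control replicate 1. The Acaa2 probe set gave 11.997, 11.69, 11.90 and 12.14 in H/R+B12, against 12.60, 12.62, 12.32 and 12.68 in contr+B12, with no overlap (-0.62 ± 0.16, adjusted p = 0.0121). The H/R call of Acaa2 was lost in centred arrays, with the negative control covariate, and without any 1 of 6 arrays: control replicate 2, 3 or 4, or H/R replicate 1, 2 or 3 (adjusted p up to 0.0966). A limma fit of H/R and control alone also ended it (adjusted p = 0.0717).

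Hadha and Hadhb encode the 2 subunits of the trifunctional protein, which completes the cycle for long chains. They start head to head, on either side of the shared stretch printed above. Hadha gave 14.31, 14.39, 14.22 and 14.31 in H/R, against 14.56, 14.57, 14.59 and 14.59 in control. These groups did not overlap, but the difference was small and not called (-0.27 ± 0.11, adjusted p = 0.108). In H/R+B12 Hadha gave 14.42, 14.24, 14.32 and 14.15, against 14.71, 14.61, 14.58 and 14.70 in contr+B12, a called difference of -0.37 ± 0.11 (adjusted p = 0.0269). Hadhb showed the calls the other way round. It gave 11.19, 11.47, 11.52 and 11.27 in H/R, against 11.82, 11.84, 12.07 and 12.04 in control, with no overlap (-0.58 ± 0.14, adjusted p = 0.00633), and 11.42, 11.59, 11.52 and 11.71 in H/R+B12, against 11.69, 11.74, 11.74 and 12.11 in contr+B12, with overlap and no call (-0.26 ± 0.14, adjusted p = 0.231). The interaction was -0.09 ± 0.15 for Hadha (adjusted p = 0.99) and 0.32 ± 0.19 for Hadhb (adjusted p = 0.987), so neither was shown to respond differently with B12. The Hadha call was lost in centred arrays and without contr+B12 replicate 1 or 4 or H/R+B12 replicate 2 or 4 (adjusted p = 0.066, 0.0621, 0.0667 and 0.0806). A limma fit of H/R+B12 and contr+B12 alone also ended it (adjusted p = 0.0979). Averaged over both B12 states the 2 genes differed by -0.32 ± 0.08 (adjusted p = 0.00462) and -0.42 ± 0.10 (adjusted p = 0.0031). Echs1, the short-chain enoyl-CoA hydratase, was not called (0.01 ± 0.16, 95% interval -0.32 to 0.35, and 0.04 ± 0.16, -0.30 to 0.38).

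Unsaturated fatty acids need an isomerase or a reductase to enter the cycle. Eci1, the mitochondrial enoyl-CoA isomerase, gave 7.72, 8.05, 8.23 and 8.04 in H/R, against 9.16, 9.34, 9.06 and 9.06 in control, or 45.2% of the control signal (-1.15 ± 0.20, adjusted p = 0.000532). The H/R+B12 arrays gave 7.90, 7.90, 8.30 and 8.53, against 8.93, 8.62, 9.50 and 9.28 in contr+B12, or 52.7% (-0.92 ± 0.20, adjusted p = 0.00293). Its groups were apart in both. Eci2, an isomerase found in mitochondria and peroxisomes, was called in neither (-0.40 ± 0.17, adjusted p = 0.114, and -0.48 ± 0.17, adjusted p = 0.0512), and was lower on average over both B12 states (-0.44 ± 0.12, adjusted p = 0.00807). Its H/R+B12 difference was called without contr+B12 replicate 2 or 3, H/R replicate 2 or 3, or H/R+B12 replicate 4 (adjusted p down to 0.0378). Acot2, a mitochondrial thioesterase that frees fatty acids from coenzyme A, gave 11.67, 11.60, 11.96 and 11.77 in H/R, against 12.19, 12.41, 12.31 and 12.73 in control (-0.66 ± 0.15, adjusted p = 0.00484). With B12, Acot2 gave 11.70, 11.94, 12.02 and 11.97 in H/R+B12, against 12.52, 12.49, 12.28 and 12.76 in contr+B12 (-0.60 ± 0.15, adjusted p = 0.00894), and again no arrays overlapped. Acot2 has a near-identical neighbour, Acot1, so its signal may hold both. Decr1, the mitochondrial dienoyl-CoA reductase, lay below the negative controls and was not called.

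The peroxisomal steps were split. Hsd17b4, the bifunctional enzyme that hydrates and oxidizes very long and branched chains, fell in both comparisons. It gave 11.57, 11.95, 11.61 and 11.61 in H/R, against 12.33, 12.57, 12.40 and 12.37 in control (-0.73 ± 0.13, adjusted p = 0.000532). It gave 11.61, 11.37, 11.55 and 11.41 in H/R+B12, against 12.25, 12.31, 12.45 and 12.34 in contr+B12 (-0.85 ± 0.13, adjusted p = 0.000142). In neither comparison did an array cross over.

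Decr2, the peroxisomal dienoyl-CoA reductase, gave 9.72, 9.68, 9.91 and 9.98 in H/R, against 10.24, 10.61, 10.66 and 10.47 in control (-0.67 ± 0.18, adjusted p = 0.013). Values in H/R+B12 were 10.20, 10.25, 9.84 and 10.32, against 10.59, 11.15, 11.31 and 10.65 in contr+B12 (-0.77 ± 0.18, adjusted p = 0.00512), and neither pair of groups overlapped. Acox3, an acyl-CoA oxidase for branched chains, gave 8.36, 8.57, 8.40 and 7.93 in H/R, against 9.03, 8.85, 9.11 and 8.97 in control, with no overlap (-0.68 ± 0.19, adjusted p = 0.0214). The Acox3 probe set gave 8.65, 8.82, 8.51 and 7.81 in H/R+B12, against 8.99, 9.01, 9.03 and 8.77 in contr+B12; H/R+B12 replicate 2 lay above contr+B12 replicate 4, and the difference was not called (-0.50 ± 0.19, adjusted p = 0.086). The H/R call of Acox3 was lost without control replicate 3 (adjusted p = 0.0578) or H/R replicate 4 (adjusted p = 0.0767), and the H/R+B12 difference was called without H/R+B12 replicate 2 (adjusted p = 0.0423).

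Acaa1a, the peroxisomal thiolase, was not called, with 0.01 ± 0.20 (95% interval -0.42 to 0.44) in H/R against control and -0.45 ± 0.20 (-0.88 to -0.02) in H/R+B12 against contr+B12. The second difference was called without contr+B12 replicate 4 (adjusted p = 0.042). Its close copy Acaa1b may share signal with it. Ehhadh, the other bifunctional enzyme of peroxisomes and a classical PPARA target, lay below the negative controls in these cells, and no change was read from it.

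Averaged per array over genes above the negative controls, the 23 genes of activation and mitochondrial oxidation gave 11.44 ± 0.03 in H/R and 11.94 ± 0.10 in control (SD, n = 4 each). They gave 11.46 ± 0.02 in H/R+B12 and 11.94 ± 0.04 in contr+B12. The highest H/R array (11.47) and the highest H/R+B12 array (11.48) both lay below the lowest control array (11.80) and the lowest contr+B12 array (11.91). The 4 peroxisomal genes gave 9.68 ± 0.14 in H/R and 10.20 ± 0.13 in control, and 9.78 ± 0.13 in H/R+B12 and 10.42 ± 0.19 in contr+B12, also without overlap between H/R arrays and the rest. By median, the 24 measured genes of activation and mitochondrial oxidation differed by -0.50 in H/R and -0.51 in H/R+B12, and the 5 peroxisomal genes by -0.67 and -0.50. In H/R 13 of the 24 and 3 of the 5 were lower, against 9.54% of all probe sets. The H/R+B12 counts were 13 of the 24 and 2 of the 5, against 9.61%. The 24 include Decr1 and the 5 include Ehhadh, both below the negative controls. Whether these parts of the program differ from each other was not tested.

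**Figure D3:**
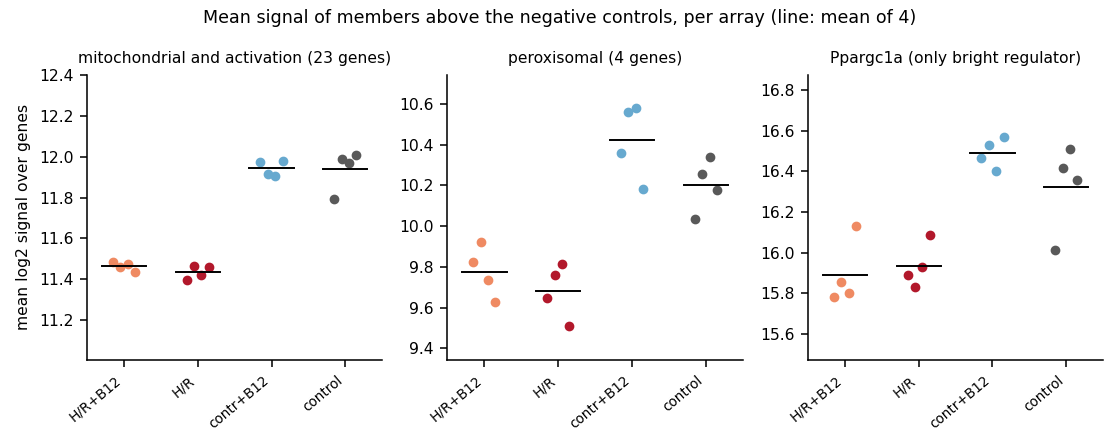
Mean log2 signal per array (vertical axis) over the genes above the negative controls, for 23 genes of activation and mitochondrial oxidation, 4 peroxisomal genes and Ppargc1a, with 1 point per array and a line at the mean of 4. In the 2 enzyme panels all H/R and H/R+B12 points lie below all contr+B12 and control points.

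Among the regulators, Ppargc1a was the 1 gene with a level above the negative controls. It encodes PGC-1α, the coactivator that drives mitochondrial gene expression in tubule and muscle cells. It gave 15.89, 15.83, 15.93 and 16.09 in H/R, against 16.01, 16.42, 16.51 and 16.36 in control, where control replicate 1 lay below H/R replicate 4 (-0.39 ± 0.14, adjusted p = 0.0599, not called). In H/R+B12 it gave 15.78, 15.85, 15.80 and 16.13, against 16.46, 16.53, 16.40 and 16.57 in contr+B12, without overlap (-0.60 ± 0.14, adjusted p = 0.00467). On average over both B12 states it was lower (-0.49 ± 0.10, adjusted p = 0.000767), and the interaction was -0.21 ± 0.19 (adjusted p = 0.987). Without control replicate 1 the H/R difference was called (adjusted p = 0.0173), as it was with array weights, without the dimmest 25% of probe sets and with an intensity trend.

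Ppara, the fatty acid receptor itself, gave 3.44, 3.13, 4.01 and 3.23 in H/R, against 4.19, 3.10, 3.46 and 3.51 in control. It gave 3.06, 3.15, 3.06 and 2.99 in H/R+B12, against 3.66, 3.66, 3.29 and 3.41 in contr+B12. These values lie below the negative control medians, and neither difference was called (-0.11 ± 0.22 and -0.44 ± 0.22, adjusted p = 0.816 and 0.19). Ppargc1b, the sister coactivator PGC-1β, gave 5.49, 6.13, 5.49 and 5.50 in H/R, against 6.44, 5.39, 6.07 and 5.90 in control, and 5.80, 4.39, 6.48 and 6.20 in H/R+B12, against 6.27, 5.82, 5.25 and 5.32 in contr+B12. Its groups overlapped in both comparisons, near the level of the negative controls, with no call (-0.30 ± 0.37 and 0.05 ± 0.37).

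B12 did not give a called difference in any of the 32 genes, in cells after H/R or in normal culture, nor did any of 22206 probe sets pass. In H/R+B12 against H/R the 32 differences ran from -0.44 to 0.33, with a median of 0.06, and 0 had an unadjusted limma p under 0.05, against 4.55% of all probe sets. The 95% intervals of the 28 genes above the negative controls spanned from -0.91 to 0.73, with a median reach of 0.33 to either side of the estimate. In cells after H/R, B12 differences beyond these outer bounds were therefore outside the interval of every 1 of the 28 genes. Differences within a gene's own interval, for most genes narrower than these bounds, were not excluded. The interaction, which asks whether B12 changed the response to H/R, passed in 0 of the 32 genes at an unadjusted limma p under 0.05, against 4.82% of all probe sets.

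In contr+B12 against control 2 of the 32 genes (6.25%) had an unadjusted limma p under 0.05, against 5.76% of all probe sets. Both are peroxisomal. Acaa1a gave 9.61, 9.77, 9.53 and 8.97 in contr+B12, against 8.55, 8.98, 9.19 and 8.89 in control, a difference of 0.57 ± 0.20 (95% interval 0.14 to 1.004, adjusted p = 0.82). Decr2 gave 10.59, 11.15, 11.31 and 10.65 in contr+B12, against 10.24, 10.61, 10.66 and 10.47 in control (0.43 ± 0.18, 0.05 to 0.80, adjusted p = 0.845). Groups overlapped for both, and the share of genes is close to that of all probe sets. After H/R, Decr2 differed by 0.33 ± 0.18 with B12 and Acaa1a by 0.11 ± 0.20, in H/R+B12 against H/R. The contr+B12 arrays also enter the H/R+B12 comparison given above, so the high Acaa1a values there and here are the same arrays.

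**Figure D4:**
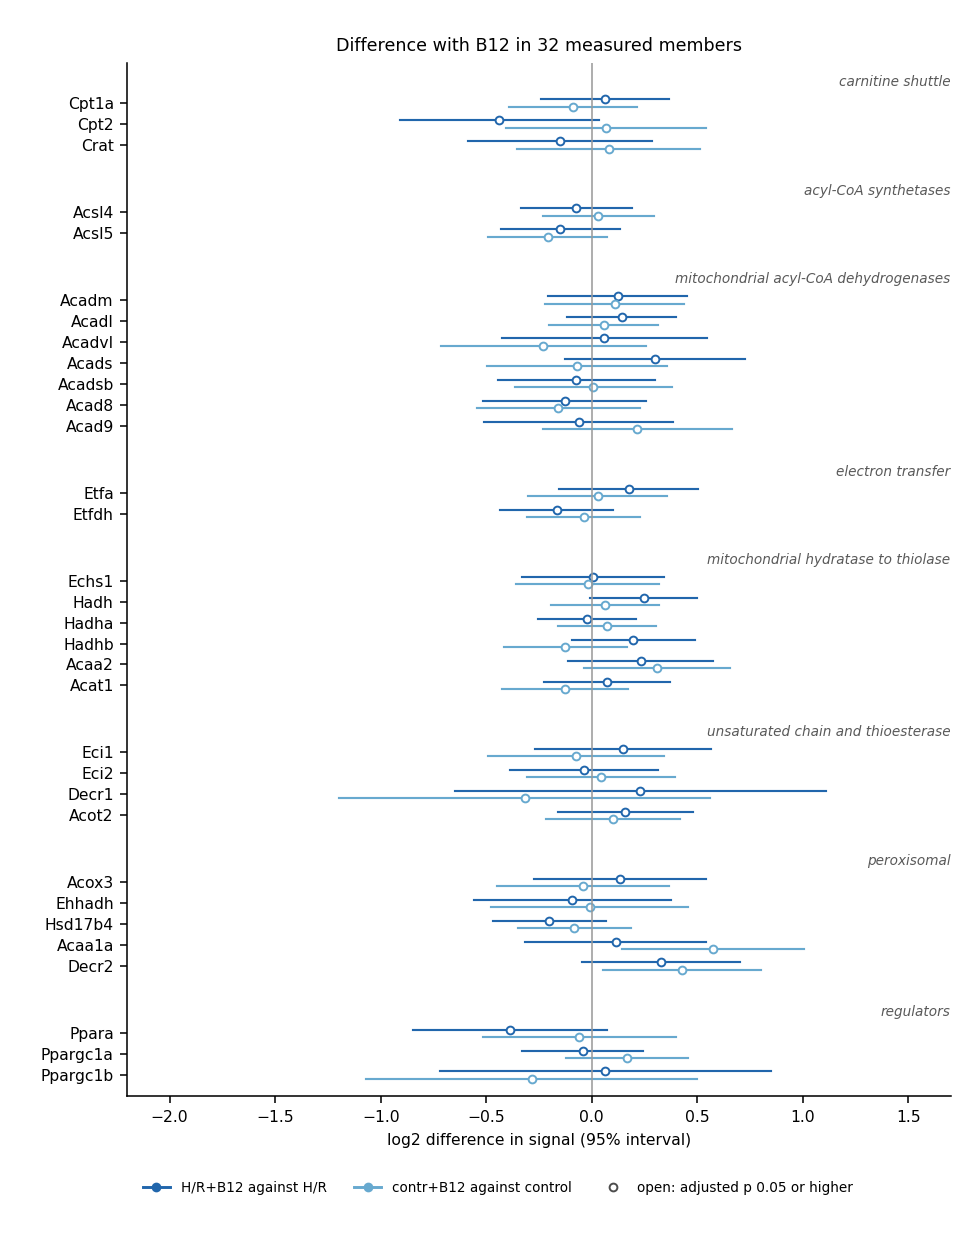
Log2 difference in signal (horizontal axis, points, with 95% intervals as lines) for the 32 measured genes in H/R+B12 against H/R (dark blue) and contr+B12 against control (light blue). All points are open, since no adjusted p fell under 0.05, and the intervals of Acaa1a and Decr2 in contr+B12 against control lie right of 0.

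Further genes of the same pathways were counted from lists written from general knowledge, with earlier results of these data known. The shares therefore describe these lists and were not tested. Of 40 other measured genes of mitochondrial fatty and organic acid oxidation, 15 were lower (37.5%, against 9.54% of all probe sets) and 0 higher in H/R. Against contr+B12, 13 were lower in H/R+B12 (32.5%, against 9.61%) and 1 was higher (2.5%, against 9.04%). Of the 40, 12 lay below the negative controls. Acot13, a thioesterase of the mitochondrial surface, averaged 13.25 ± 0.02 in H/R and 14.03 ± 0.14 in control (-0.77 ± 0.13, adjusted p = 0.000414). Acsf2, a medium-chain acyl-CoA synthetase, averaged 8.58 ± 0.37 in H/R and 9.59 ± 0.16 in control (-1.01 ± 0.18, adjusted p = 0.00062). Pccb, a subunit of propionyl-CoA carboxylase, averaged 6.76 ± 0.53 in H/R and 8.09 ± 0.16 in control (-1.33 ± 0.26, adjusted p = 0.00141). Genes of propionate and branched-chain oxidation were among those that fell. Acss3 (propionate activation) differed by -1.47 ± 0.30 and Hsd17b10 (a branched-chain hydroxyacyl-CoA dehydrogenase) by -0.64 ± 0.14, with adjusted p of 0.0022 and 0.00391. Acad10 was also called lower in H/R (adjusted p = 0.00584), but at 5.65 ± 0.54 in H/R, against 6.86 ± 0.34 in control, its H/R mean lay below the negative control medians of those arrays (5.88 to 6.23), and the size of its change is not given. The lowest Pccb array in H/R (5.97) lay among those medians too. In the H/R+B12 comparison Acot13, Acsf2, Acss3 and Hsd17b10 were called lower again, and Pccb (-0.67 ± 0.26, adjusted p = 0.085) and Acad10 (adjusted p = 0.362) were not called.

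Of 26 other measured genes of peroxisomal oxidation, 12 of them below the negative controls, 4 were lower in H/R (15.4%, against 9.54% of all probe sets) and 2 in H/R+B12 (7.69%, against 9.61%), and 0 were higher in either. The share in H/R+B12 did not exceed that of all probe sets. The 4 were Crot, the peroxisomal carnitine octanoyltransferase (-0.58 ± 0.14, adjusted p = 0.00932), Acot8, a peroxisomal thioesterase (-0.87 ± 0.24, adjusted p = 0.0154), Acaa1b (adjusted p = 0.0276), and Idh1, an isocitrate dehydrogenase of cytosol and peroxisomes (-0.37 ± 0.12, adjusted p = 0.0453). On average Acaa1b lay below the negative controls in H/R, at 5.60 ± 0.25, and just above them in control, at 6.47 ± 0.03, so the size of its change is not given. Of the 4, only Crot was called in H/R+B12 too (-0.53 ± 0.14, adjusted p = 0.0156). Of 15 measured genes that build peroxisomes, 1 was higher and 1 lower in H/R (6.67% each, against 8.11% and 9.54% of all probe sets), no more than the share of all probe sets. Pex5, the import receptor for matrix proteins, was the higher 1 (0.71 ± 0.21, adjusted p = 0.0234). The membrane protein Pxmp4 was the lower 1 (adjusted p = 0.0137), at 5.82 ± 0.40 in H/R, a mean below the negative controls, and 6.82 ± 0.31 in control. The H/R+B12 comparison had 1 lower (6.67%, against 9.61%) and 0 higher, and the median differences were -0.08 and 0.10.

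Known PPAR targets outside oxidation were called in H/R at shares near or below those of all probe sets. Of 36 measured, 24 lay below the negative controls. In H/R 3 were higher (8.33%, against 8.11% of all probe sets) and 2 lower (5.56%, against 9.54%). The H/R+B12 arrays had 4 higher (11.1%, against 9.04%) and 0 lower (against 9.61%). Adipor2, an adiponectin receptor, rose in H/R (1.18 ± 0.14, adjusted p = 1.59e-05), with 12.76 ± 0.09 in H/R and 11.58 ± 0.18 in control. Lpin1, a phosphatidate phosphatase and partner of PGC-1α, rose as well (1.19 ± 0.18, adjusted p = 0.000145), as did the desaturase Scd1 (0.46 ± 0.13, adjusted p = 0.0221). The desaturase Fads2 and the fatty acid transporter Slc27a4 fell in H/R (-0.49 ± 0.15 and -0.49 ± 0.16, adjusted p = 0.0255 and 0.0488).

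Of 37 measured partners of the PPARs and other energy regulators, 8 were higher in H/R (21.6%, against 8.11% of all probe sets) and 3 lower (8.11%, against 9.54%). For H/R+B12 the counts were 9 higher (24.3%, against 9.04%) and 7 lower (18.9%, against 9.61%). Rxra, which forms the DNA-binding dimer with PPARs, averaged 7.34 ± 0.38 in H/R and 8.42 ± 0.17 in control (-1.08 ± 0.18, adjusted p = 0.000379). In H/R+B12 it averaged 7.48 ± 0.21, and 8.65 ± 0.14 in contr+B12 (-1.17 ± 0.18, adjusted p = 0.000183). Hdac3, a corepressor deacetylase, fell in H/R too (-0.71 ± 0.13, adjusted p = 0.00102). Hif1a, the hypoxia-inducible factor subunit, averaged 16.51 ± 0.12 in H/R and 15.40 ± 0.29 in control (1.12 ± 0.15, adjusted p = 4.88e-05). Prkab1 and Prkab2, the beta subunits of the energy sensor AMPK, rose in H/R (0.91 ± 0.16 and 0.98 ± 0.16, adjusted p = 0.000847 and 0.000364). Nrf1, an activator of nuclear genes for mitochondria, rose in H/R (0.68 ± 0.13, adjusted p = 0.00118).

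**Figure D5:**
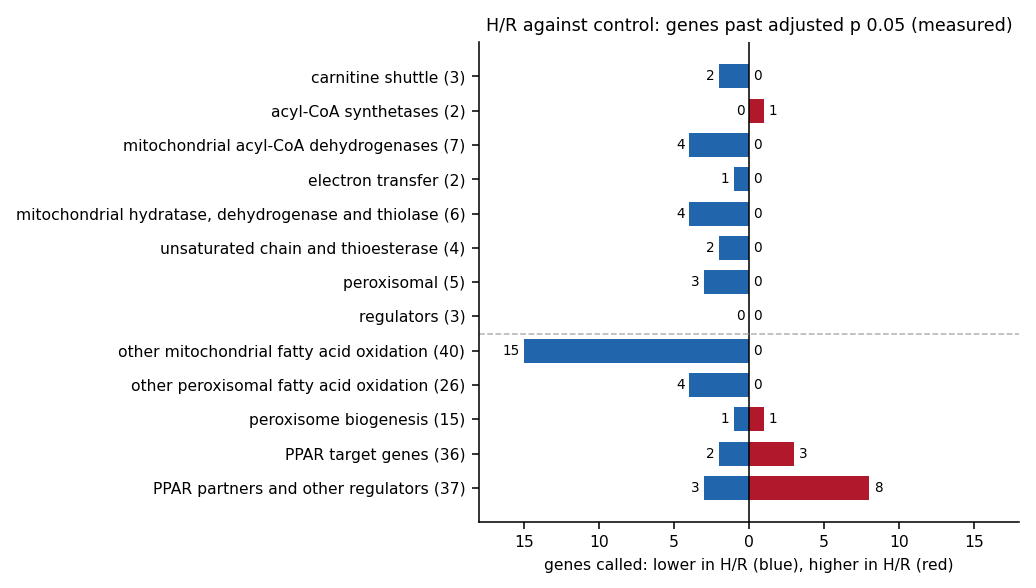
Number of genes called in H/R against control (horizontal axis), lower to the left in blue and higher to the right in red, for the 8 roles of the 32 measured genes (above the dashed line) and 5 further lists (below it), with the number measured in brackets. The longest blue bar is that of the 40 other mitochondrial genes (15 lower), and the longest red bar that of the 37 PPAR partners and other regulators (8 higher).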

How the data were processed

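RNA of 16 samples was measured on Affymetrix arrays. Per the submitters' processing notes, the authors made the deposited log2 signals with RMA in Affymetrix Expression Console and used the Transcriptome Analysis Console; their versions are not given in what was used. No further normalization was applied in the fit reported first. Of 28846 features, 6640 controls were left out and 22206 probe sets tested; 19572 carried 1 gene symbol, 2634 none and 0 several. Symbols came from the platform annotation, and RefSeq (GRCm38.p6) gave promoter windows. A gene with several probe sets was represented by the one with the highest mean over 16 arrays. The 36 genes and all lists were chosen with earlier results of these data known.

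One limma 3.58.1 model of the 4 groups was fitted in R 4.3.3 with moderated variances (empirical Bayes; 4.23 prior degrees of freedom). P-values are two-sided and adjusted over 22206 probe sets within each of 7 comparisons, with a threshold of 0.05. Values after ± are SE for differences and SD for means. The fit was tested on simulated data. Per-array values are given for genes called in H/R against control or H/R+B12 against contr+B12 and for the regulators, and up to 6 genes with the smallest p in H/R against control from each further list. Alternatives were quantile normalization, median centring, a replicate block, leaving each array out in turn, and robust variances with an intensity trend. Others were weighting the arrays, 2-group fits, dropping the dimmest 25% of probe sets, and calls at a 1.5-fold change with p under 0.05 before adjustment. Using every probe set of a gene was also planned, but could not change the counts, since none of the measured genes had several. The negative control covariate and the background of probe sets above the negative controls were added after seeing the data. The number of arrays limits the precision. Protein sequences were not used here. Motifs were counted and plots drawn with Python 3.11.15 and matplotlib 3.10.9. The descriptions of some B12 samples read B13 to B15; their titles and source names say B12 and were followed.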

Additional observations from a re-analysis of the deposited data

Results flagged for a closer look

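In 10 of 128 sets of 4 arrays (32 genes in 4 groups) 1 array stood apart from the others of its group by a gap above Dixon's 95% critical value for 4 samples. Chance alone flags about 1 in 20 such sets, or 6.4 of 128. The 10 fell in 6 arrays, with at most 2 in any 1 array.

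Cpt2 was 7.88 in H/R+B12 replicate 4, with the other three arrays at 8.70 to 8.80. Crat was 8.93 in H/R replicate 3 (others 8.35 to 8.42). Acsl4 was 14.25 in H/R replicate 3 (others 14.50 to 14.54), still above all control arrays. Hsd17b4 was 11.95 in H/R replicate 2 (others 11.57 to 11.61), below all control arrays. Ppargc1b was 6.13 in H/R replicate 2 (others 5.49 to 5.50), near the negative controls. Acad9 was 10.24 in contr+B12 replicate 1 (others 9.64 to 9.71). Hadhb was 12.11 and Acox3 8.77 in contr+B12 replicate 4 (others 11.69 to 11.74 and 8.99 to 9.03). Etfdh was 13.29 in control replicate 4 (others 12.99 to 13.04). Decr1 was 5.48 in control replicate 4 (others 3.06 to 3.36), below the negative control medians.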

How the results depend on the processing

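In H/R against control, 11 of the 17 called genes kept their call in every alternative fit, and Cpt1a, Crat, Acadvl, Etfdh, Acaa2 and Acox3 lost it in some. For H/R+B12 against contr+B12, 15 of 17 kept it, and Acadsb and Hadha lost it in some. No called difference changed sign. Against 16 genes lower in H/R as reported, centring left 13, the negative control covariate 14, the fit of 2 groups 12 and the unadjusted p with a 1.5-fold change 12, while an intensity trend gave 20. Under the rule of unadjusted p and 1.5-fold change, 12 genes were lower on average over both B12 states and 0 were higher in H/R+B12 against contr+B12, where Acsl4 lay just under that fold. Leaving out 1 array gave 12 to 18 genes lower in H/R against control, 14 to 17 in H/R+B12 against contr+B12 and 21 in the average. Comparisons of B12 and the interaction called 0 genes by limma in every alternative that used adjusted p-values. With the replicate number as a block, 16 genes were lower in H/R against control and 17 in H/R+B12 against contr+B12, where Acox3 was added; no other call changed. Same-numbered arrays deviated together at correlations of -0.07 to 0.08 over 24 pairs, so the numbers were not taken to pair samples. Replicate 1 had the highest negative control median in each group (6.10 in control, 6.08 in contr+B12, 6.23 in H/R and 6.17 in H/R+B12). What these arrays share was not tested. The planned protein identity was not run, since no protein table was given. Decr1, Ehhadh, Ppara and Ppargc1b had means below the negative controls, a cutoff above the array medians, and no change was read from them.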

Other observations

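The end of odd-chain and branched-chain oxidation passes through propionyl-CoA to methylmalonyl-CoA mutase (Mmut), an enzyme that needs a B12 cofactor. The 4 genes of this route, of which Pcca and Pccb encode the subunits of 1 enzyme, were looked at together after their values were seen. In H/R against control all were lower, against 9.54% of all probe sets. They were Pcca (-0.75 ± 0.20, limma adjusted p = 0.0164), Pccb (-1.33 ± 0.26, 0.00141), the epimerase Mcee (-0.70 ± 0.22, 0.0341) and Mmut (-0.47 ± 0.13, 0.022). The lowest Pccb array in H/R (5.97) lay among the negative control medians. Between H/R+B12 and contr+B12, Mcee (-0.87 ± 0.22, adjusted p = 0.00913) and Mmut (-0.59 ± 0.13, 0.00484) were lower, against 9.61% of all probe sets. There Pcca (-0.26 ± 0.20, 0.462) and Pccb (-0.67 ± 0.26, 0.085) were not called. Pccb averaged 6.60 in H/R+B12 and 6.76 in H/R, so it was no higher with B12 after H/R. Its reference was lower, at 7.28 in contr+B12 and 8.09 in control (-0.82 ± 0.26, limma adjusted p = 0.82, not called). Pcca averaged 9.15 in H/R+B12 and 8.83 in H/R (0.33 ± 0.20, not called). Mmut lay at 10.54 to 10.81 in H/R+B12 and 10.83 to 11.08 in H/R, without overlap, but the difference was not called (-0.27 ± 0.13, adjusted p = 1).

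Sirt3, the mitochondrial deacetylase that acts on several oxidation enzymes, was lower in H/R+B12 against contr+B12 (-0.81 ± 0.17, limma adjusted p = 0.00244) and not called in H/R against control (0.04 ± 0.17, 0.933). It lay at 8.73 to 9.13 in contr+B12 and 8.08 to 8.49 in control, without overlap, although that difference was not called (0.64 ± 0.17, adjusted p = 0.762). The interaction of H/R and B12 was called in 0 of 22206 probe sets, so Sirt3 was not shown to respond differently with B12. How often groups lie apart over all probe sets was not counted for the B12 comparisons. Sirt3 was picked out after its values were seen.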
